A study of Mus musculus with 6 samples.

Results

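The keratin gene clusters of the mouse lie on chromosome 11, with the type I keratins and the keratin-associated proteins, and on chromosome 15, with the type II keratins. Array probes were taken as members where their start lay in a window set around each cluster on the mm9 build, and neighbouring probes up to 1000 bp apart were joined into a region. The regions so found span chr11:99250188-100069970 and chr15:101200057-101904659. The rule gave 665 of the 174638 probes of the array and 87 of its 21987 regions, of which 53 lay in the type I window and 34 in the type II window. After 2 flagged probes were left out, 392 type I and 271 type II probes were kept, with 4 to 9 probes a region and a median of 8. Regions are numbered in order along each window. The files name no genes and no gene annotation of mm9 was used here, so regions are given by number and position and not by gene, and some may belong to other genes that lie within the clusters. The only place that carries gene names is the stretch of the type II window where the rule puts Krt8 and Krt18, which holds regions 32 and 33.

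Genomic DNA of offspring liver, taken from mice at the age of 32 weeks, was measured. The chromium-restricted group held 3 samples from dams on a chromium restriction diet, and the control group held 3 samples from dams on a control diet. The labels give no strain, sex or litter, do not say whether animals were pooled, and name fat as the extracted tissue although the title and the tissue label of every sample say liver. With no gene names in the files, the tissue label could not be set against hepatocyte or fat cell markers. Nothing in the labels says which samples came from separate litters. A p-value here therefore speaks of the spread among these arrays alone, which may be partly technical. In methylated DNA immunoprecipitation (MeDIP), an antibody to 5-methylcytosine pulls down methylated fragments. On each of the 6 two-channel arrays the immunoprecipitated (IP) DNA carried Cy5 and the input DNA carried Cy3. Values are log2 ratios of IP over input, centred so that 0 is the median probe of the array, and a region's value is the mean over its probes. The antibody binds more strongly where methylated CpG sites are dense, so a ratio reflects both the share of methylated sites and their number, averaged over all the cells of the tissue.

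Keratins are the intermediate filament proteins of epithelial cells, and each filament is built from pairs of a type I and a type II chain. Simple epithelia use Krt8 with Krt18, the only such pair of the adult hepatocyte, while bile duct cells also make Krt7 and Krt19. Krt5 and Krt14 belong to the basal layer of the epidermis, Krt1 and Krt10 to its upper layers, and the hair keratins with the keratin-associated proteins (Krtap) build the hair shaft. Krt18 is a type I keratin although it lies beside Krt8 at the end of the type II cluster. In the RefSeq gene order of GRCm38.p6, a later build than mm9, 21 keratin and 23 Krtap genes stand between Krt10 and Krt42 on chromosome 11, together with 24 other records of which 15 are protein-coding genes. On chromosome 15, 27 keratin genes and 13 other records stand between Krt80 and Krt18, and Krt8 and Krt18 have 2 lncRNA records between them.

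The promoters of the clusters differ in how many CpG sites they hold in the 250 bases before the start. For that reason 4 of them are shown: the hepatocyte pair Krt8 and Krt18, the bile duct keratin Krt7 and the epidermal keratin Krt10. Each sequence covers the 250 bases before the gene's start in RefSeq GRCm38.p6, printed from 5′ to 3′ on the gene's strand, with CpG sites in capitals. The positions are chr15:102004343-102004592 on the minus strand, chr15:102027966-102028215 on the plus strand, chr15:101412153-101412402 on the plus strand and chr11:99389365-99389614 on the minus strand. These positions are on another build than the array and were not joined to its regions. The keratin regions of the array span a median of 1620 bp, so these counts do not give the CpG sites of a region.
Krt8: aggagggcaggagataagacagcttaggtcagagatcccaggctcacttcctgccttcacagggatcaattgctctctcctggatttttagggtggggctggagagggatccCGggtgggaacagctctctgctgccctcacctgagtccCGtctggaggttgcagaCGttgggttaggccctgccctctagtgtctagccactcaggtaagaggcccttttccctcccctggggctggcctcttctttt
Krt18: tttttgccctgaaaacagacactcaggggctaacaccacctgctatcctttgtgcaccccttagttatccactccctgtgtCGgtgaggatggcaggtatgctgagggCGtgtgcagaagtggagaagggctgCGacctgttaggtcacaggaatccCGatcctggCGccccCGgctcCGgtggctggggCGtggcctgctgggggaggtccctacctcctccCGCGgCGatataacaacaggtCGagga
Krt7: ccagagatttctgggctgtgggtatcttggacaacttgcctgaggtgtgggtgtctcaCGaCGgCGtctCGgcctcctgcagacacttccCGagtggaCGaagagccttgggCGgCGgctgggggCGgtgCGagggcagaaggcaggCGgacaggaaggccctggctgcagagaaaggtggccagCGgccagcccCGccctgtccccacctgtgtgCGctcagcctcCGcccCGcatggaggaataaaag
Krt10: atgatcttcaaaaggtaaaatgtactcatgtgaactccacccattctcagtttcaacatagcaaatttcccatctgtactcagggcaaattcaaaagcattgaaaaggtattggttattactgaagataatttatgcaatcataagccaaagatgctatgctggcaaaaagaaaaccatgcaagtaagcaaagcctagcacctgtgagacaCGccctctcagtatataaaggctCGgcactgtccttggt
Krt7 holds 16 CpG sites and Krt18 holds 12, while Krt8 holds 3 and Krt10 holds 2. Against 32851 RefSeq promoters of the same length, whose median is 6 CpG sites, Krt7 lies at the 75.5th percentile, Krt18 at the 67.5th, Krt8 at the 33.4th and Krt10 at the 23.9th.

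Of 73 keratin and chromosome 11 Krtap genes listed, 55 had a promoter in the RefSeq table. The list was set by gene name and not matched to the array windows, so some of its genes may lie outside them. The median of the 55 promoters was 3 CpG sites, and 4 of the 55 were above the median of all promoters. The 5 matched simple epithelial keratins had 3 to 16 CpG sites with a median of 5. The 12 matched keratins of stratified epithelium had 2 to 6 with a median of 3. The 17 matched keratins of hair and inner root sheath had 1 to 9 with a median of 4. The 21 matched Krtap genes had 0 to 4 with a median of 1, and 8 of them had no CpG site in this window. The letters TATAAA, read on both strands, were found in 20 of 21 Krtap promoters, 13 of 17 hair and inner root sheath promoters, 3 of 12 stratified and 1 of 5 simple epithelial promoters. Over the 55 matched promoters that is 67.3%, against 12.4% of all RefSeq promoters. The letters GGGCGG, also read on both strands, were found in 3.64% of the matched promoters and in 32.7% of all. A match is a description of letters and not of a bound site. Krtap genes form families of similar copies, and how far array probes bind several of them was not tested.

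**Figure D1:**
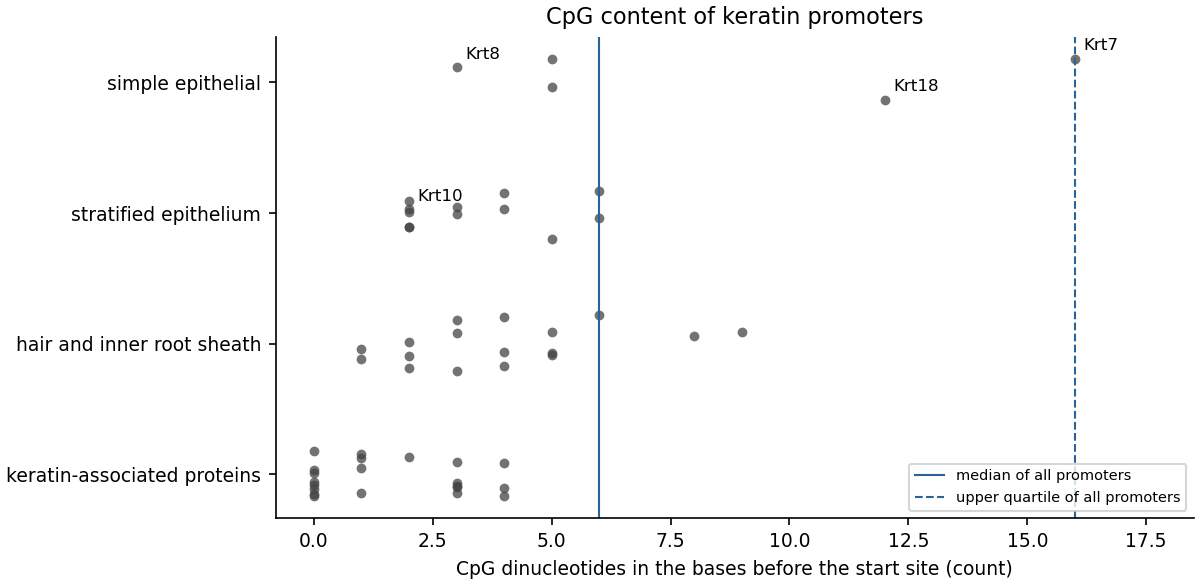
CpG sites (x axis, count) in the 250 bases before the start of 55 keratin and Krtap genes, 1 point a gene, by gene class (y axis; the vertical spread within a class only separates points). The solid and dashed lines mark the median of 6 and the upper quartile of 16 over all 32851 RefSeq promoters; 4 of the 55 points lie above the median.

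The type I window was dimmer and the type II window brighter than the array as a whole. Probes called well above background for IP and input alike on every array made up 60.5% of type I probes, 75.6% of type II probes and 67.5% of all probes. The median input signal was 49.9 in the type I window, 80.8 in the type II window and 63.8 over all probes, and no keratin probe was saturated. The median SD of a keratin region between the 6 arrays was 0.13, while the median SD between the probes of 1 region was 1.09. Tests of a level cover the spread between arrays and not the larger spread between probes.

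The type I and type II windows both held regions on either side of the array median. In the type I window 13 of 53 regions were above it and 27 below it by limma at an adjusted p under 0.05. In the type II window 17 of 34 regions were above it and 12 below it. Over all 21987 regions 32% were above and 49.6% below. Of the type I regions 24.5% were above and 50.9% below, the latter near the share over the array. The type II window had 50% above and 35.3% below. The median region stood at -0.14 in the type I window, with quartiles of -0.53 and 0.14, and at 0.11 in the type II window, with quartiles of -0.40 and 0.22. The median of all regions was -0.11, with quartiles of -0.45 and 0.20. This order of the windows was not tested, and it turned when only probes well above background in both channels were used, where the medians were 0.046 for 43 type I regions and 6.87e-04 for 33 type II regions. With that filter 36.4% of type II regions were above, near the 37.0% of all regions, and 48.8% of type I regions were. The filter also moves the array median that sets 0, so levels under it do not share the zero of the main analysis.

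The highest keratin region was type II region 14 (chr15:101439089-101439749, 4 probes). It measured 0.93, 0.96 and 0.97 on chromium-restricted arrays 1 to 3 and 0.89, 0.77 and 1.03 on control arrays 1 to 3. All 6 arrays were far above the array median (mean 0.93 ± 0.091, SD, n = 6; limma adjusted p = 3.1e-08), and the region stood at the 99.4th percentile of all regions. Its rank depended on the processing. With only probes well above background it stood at 0.49, below type II region 3 at 1.11. With normexp background correction it was at 0.48, below type I region 28 at 0.66. In the authors' values it was at 0.74, below type I region 52 at 0.82. Type II region 3 (chr15:101268742-101270453) measured 0.71, 0.89 and 0.75 in the chromium-restricted group and 0.61, 0.80 and 0.84 in the control group. Its mean of 0.77 ± 0.10 (SD, n = 6) lay at the 98.1th percentile. The next type II regions were region 7 (chr15:101321445-101323188) at 0.56, region 5 (chr15:101293697-101295341) at 0.46 and region 25 (chr15:101648115-101649589) at 0.43. Of the 5 highest, 3 thus lay within the first 7 regions of the window.

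The lowest was type II region 27 (chr15:101699552-101701324, 9 probes). It measured -1.26, -1.37 and -1.09 in the chromium-restricted group and -1.35, -1.16 and -1.39 in the control group. The 6 arrays overlapped fully between the groups, with a mean of -1.27 ± 0.13 (SD, n = 6; limma adjusted p = 1.34e-08) at the 3.81th percentile. Of its 9 probes 3 were well above background, and it had no value when only such probes were used. Type II region 19 (chr15:101524252-101525923) had the smallest SD of the named regions, at -1.13, -1.19 and -1.13 against -1.25, -1.16 and -1.13, with a mean of -1.16 ± 0.046 (SD, n = 6). Its level was nearer 0 at -0.46 for the median over probes, -0.38 for normexp background correction and -0.47 for well-above-background probes alone. In the authors' values it was -0.80, and without centring -1.08. Regions 18 (chr15:101521617-101523154) at -0.77, 21 (chr15:101573030-101574723) at -0.67 and 17 (chr15:101510232-101511896) at -0.63 completed the 5 lowest. Regions 17, 18 and 19 are neighbours. Regions 17 and 21 were above 0 when the median over probes replaced the mean, at 0.086 and 0.044, while the median of all regions moved from -0.11 to 0.0035. Each held 2 probes with input signal but no IP signal above background, whose ratios say only that they are low.

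In the type I window the highest region was region 28 (chr11:99670712-99672335, 7 probes). It measured 0.67, 0.49 and 0.79 in the chromium-restricted group and 0.43, 0.81 and 0.78 in the control group, with a mean of 0.66 ± 0.17 (SD, n = 6; limma adjusted p = 3.06e-06). Region 46 (chr11:99949056-99950740) followed at 0.59 ± 0.064, region 52 (chr11:100054063-100055222) at 0.57 ± 0.053, region 48 (chr11:99966446-99968082) at 0.51 ± 0.072 and region 19 (chr11:99496049-99497661) at 0.46 ± 0.23 (SD, n = 6 each). The last of these had the widest spread of the 5 and 2 of 8 probes well above background. Region 28 stood below region 46 with only probes well above background (0.61 against 0.66). In the authors' values it stood below region 52 (0.71 against 0.82).

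The lowest type I region was region 14 (chr11:99464123-99465207, 6 probes). It measured -0.83, -1.25 and -0.77 in the chromium-restricted group and -1.24, -1.02 and -1.03 in the control group, with a mean of -1.02 ± 0.20 (SD, n = 6; limma adjusted p = 3.69e-07). Of its 6 probes 2 were well above background, and it too had no value under that filter. Region 3 (chr11:99298970-99300695) had a narrower spread at -0.95 ± 0.069, and regions 12 (chr11:99452192-99453904), 15 (chr11:99471109-99472707) and 5 (chr11:99382076-99383770) measured -0.93 ± 0.22, -0.81 ± 0.18 and -0.75 ± 0.16 (SD, n = 6 each). Region 5 was at 0.015 when only probes well above background were used. Its 8 probes included 3 whose input was well above background on all 6 arrays and whose IP signal was on none.

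**Figure D2:**
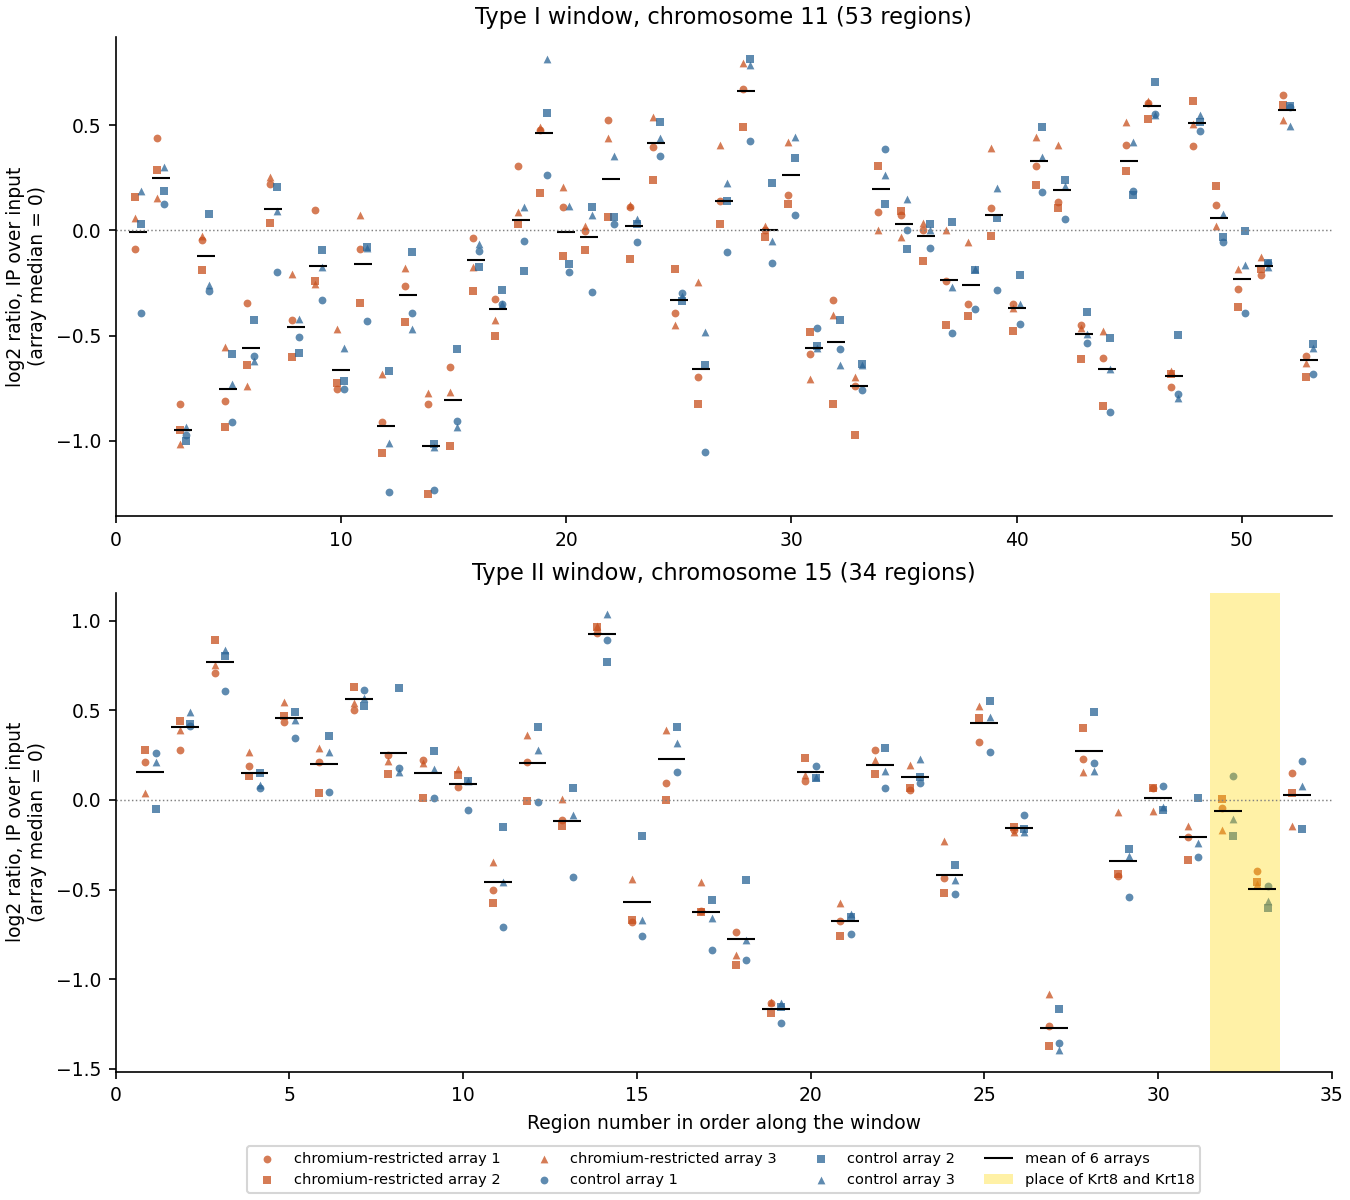
Log2 ratio of IP over input (y axis, 0 is the array median) of the 53 type I regions and the 34 type II regions in order along each window (x axis, region number), with a point for each of 3 chromium-restricted and 3 control arrays and a bar at the mean of the 6. The groups overlap in all regions but type II region 33, type II regions 1 to 10 have means above 0, type I regions 8 to 17 have means below 0, and the shaded stretch marks the place of Krt8 and Krt18.

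Most neighbouring regions changed side often, but each window held a single long stretch. The type I regions formed 23 runs on 1 side of the array median and the type II regions 19, of which 22 and 18 held at most 4 regions. Type II regions 1 to 10 (chr15:101200057-101382330) all had means above 0, from 0.090 to 0.77, and 9 of the 10 were above the array median in the limma test. Type I regions 8 to 17 (chr11:99417697-99482970) all had means below 0, from -1.02 to -0.14, and all 10 passed the test. These stretches were picked after their values were seen and get no test. Over the array, 10 of 21798 sets of 10 neighbouring regions lay wholly above 0 (0.0459%) and 559 wholly below (2.56%). With only probes well above background in both channels, 8 of the 10 type II regions were above 0, and 5 of the 8 type I regions with a value were below it.

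Probes that gave input signal but no IP signal mark the low end of the scale. Of 486 keratin probes with input well above background on all 6 arrays, 38 (7.82%) had IP signal well above background on none, against 6.43% of such probes over the whole array. They were 22 of 263 in the type I window and 16 of 223 in the type II window. They fell in 31 of 87 keratin regions (35.6%), against 29.6% of all regions. In 6 regions (6.90%, against 6.09% of all regions) there were at least 2 of them, namely type I regions 5 and 17 and type II regions 17, 19, 21 and 27, of which 5 are among the lowest regions named above. These shares are near those of the array. This count was chosen after the data were seen and describes the same signals that set the means.

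At the place of Krt8 and Krt18 the window held a pair of regions, type II region 32 (chr15:101834275-101835978) and type II region 33 (chr15:101857347-101859097), with 8 probes each. Which of them belongs to which gene was not determined on mm9. Region 32 measured -0.04, 0.00 and -0.17 in the chromium-restricted group and 0.13, -0.20 and -0.11 in the control group. The 6 arrays lay on both sides of 0, and the mean of -0.064 ± 0.12 (SD, n = 6) did not pass the level test (limma adjusted p = 0.234), at the 53.6th percentile of all regions. Region 33 measured -0.40, -0.46 and -0.47 in the chromium-restricted group and -0.48, -0.60 and -0.56 in the control group. All 6 arrays were below 0, with a mean of -0.49 ± 0.076 (SD, n = 6; limma adjusted p = 1.14e-06) at the 22.3th percentile.

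Each was set against the median of the other 32 type II regions on the same array. Region 33 was lower than that median on 6 of 6 arrays, by a mean difference of -0.59 ± 0.097 (SD, n = 6), with a two-sided exact sign-flip p of 0.03125, the smallest that 6 arrays allow, and 0.0625 after Benjamini-Hochberg adjustment over the pair. Region 32 was lower on 5 of 6 arrays, by -0.16 ± 0.16 (SD, n = 6), with an exact p of 0.09375 and the same value after adjustment. In the main analysis neither passed 0.05 after adjustment, which this design could not reach for a single region of the pair. The exact test sets the mean difference over the arrays against the means found when the signs of the differences are flipped. Any region that keeps to 1 side of that median on every array gets the smallest p. Type II levels ran from -1.27 to 0.93 with a median SD between arrays of 0.11. The smallest p therefore does not set region 33 apart from other regions, and the test was not run for the other 32. Region 32 exceeded region 33 by 0.43 ± 0.11 (SD, n = 6) on 6 of 6 arrays (two-sided exact sign-flip p = 0.03125).

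The low mean of region 33 came from 2 of its 8 probes. These lay at -322 and -111 bp from the region's middle and measured -3.75 ± 0.32 and -3.23 ± 0.62 (SD, n = 6). Their mean input signals were 48.5 and 29.2, well above background on 6 and 5 arrays, while their mean IP signals were 5.42 and 0.249 and well above background on none, so their ratios say only that they are low. The other 6 probes ranged from -1.15 to 1.61. With the 2 probes left out by requiring signal well above background in both channels, the region stood at 0.28. That filter also moved the array median that sets 0, so this level does not share the zero of the main analysis. The level of region 32, which kept all 8 probes, went from -0.064 to -0.28. Region 33 then exceeded the rest of the window by 0.29 on the 6 arrays (exact p = 0.03125). Region 32 was lower than the rest by 0.28 under that filter (contrast -0.28, exact p = 0.03125). It lost none of its 8 probes, so the change in its contrast came from the other regions. Under that filter both exact p stayed at 0.03125 after adjustment over the pair, with region 33 above the rest and region 32 below it. The order of the pair turned with that filter, which by its construction removes probes without IP signal. With the median over probes the contrasts were -0.44 for region 32 and -0.075 for region 33. After normexp background correction region 33 differed from the rest by 0.023 (exact p = 0.22).

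All 8 probes of region 32 had IP and input signal well above background on every array. They alternated between high and low along the region, from -1.63 at -294 bp from its middle to 1.90 at 610 bp. The alternation was alike on all 6 arrays, with SDs between arrays of 0.063 to 0.42 for single probes, so the mean near 0 was an average of probes far from 0 on both sides.

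**Figure D3:**
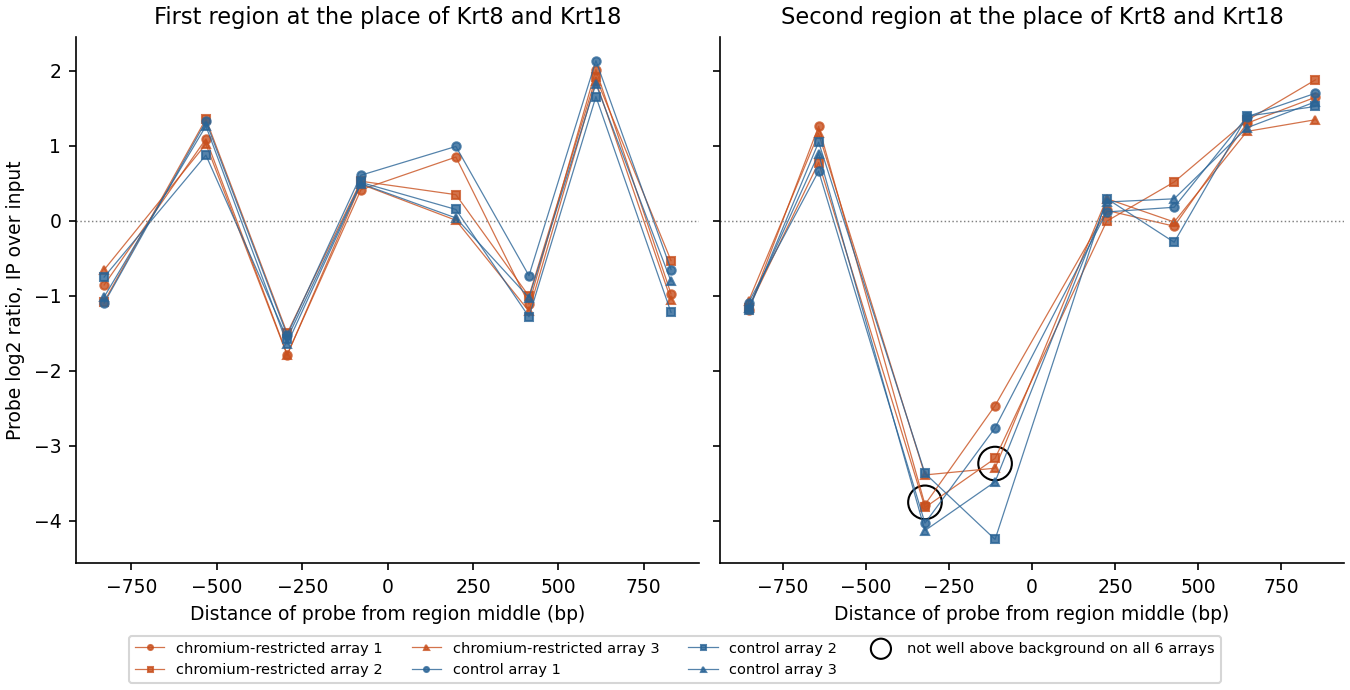
Log2 ratio of IP over input (y axis) of the 8 probes of type II region 32 (left) and of type II region 33 (right) by distance from the region's middle (x axis, bp), with a line for each of the 6 arrays. Circles mark the 2 probes that lacked IP signal well above background; they lie near -3.75 and -3.23, and the lines of the groups run together.

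The study asked whether restricting chromium, a trace element, in the diet of the dam alters DNA methylation in the liver of its offspring. No keratin region passed the threshold in that comparison. Of 87 regions, 0 passed limma's adjusted p of 0.05, as did 0 of all 21987 (background 0%), and 0 of 87 had an unadjusted p under 0.05, against 197 regions (0.896%) over the array. The differences ran from -0.16 to 0.19 with 46 regions higher and 41 lower in the chromium-restricted group, and the median difference was 0.010, against 0.0040 over all regions. The lowest unadjusted p was 0.12, and every adjusted p rounded to 1.0. The median 95% interval reached 0.24 to each side of the difference, and no interval went past 0.56 in either direction. These intervals hold for a single region, without adjustment for the number of regions, and are not limits of detection. Over the array differences ran from -0.50 to 0.49, and still no region passed the adjusted threshold with 3 arrays a group.

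Type I region 18 (chr11:99489222-99490841), with 5 probes, had the smallest unadjusted p. It measured 0.31, 0.03 and 0.09 in the chromium-restricted group and -0.05, -0.19 and 0.11 in the control group. The groups overlapped, and the difference was 0.19 ± 0.11 (SE; 95% interval -0.06 to 0.43; limma unadjusted p = 0.12, adjusted p = 1.0). Its probes were split, with 2 higher and 3 lower, and the sign turned with normexp correction (-0.017), with the median over probes (-0.027) and with only probes well above background (-0.061). The next type I regions were region 49 (chr11:99982312-99983923) with a difference of 0.12, region 45 (chr11:99911374-99912897) with 0.14 and region 22 (chr11:99526860-99528491) with 0.19, with unadjusted p of 0.184, 0.19 and 0.205. Region 22 differed by 0.33 (limma unadjusted p = 0.0257) without chromium-restricted array 2, the lowest of its group there at 0.061. Each of the 6 arrays was left out in turn, and no keratin region then passed the adjusted threshold. The values of region 22 without each of the other arrays are not given here.

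In the type II window the smallest unadjusted p belonged to region 33 at the place of Krt8 and Krt18. The chromium-restricted mean was -0.44 ± 0.040 and the control mean -0.55 ± 0.063 (SD, n = 3 each), a difference of 0.11 ± 0.074 (SE; 95% interval -0.06 to 0.28; limma unadjusted p = 0.182, adjusted p = 1.0). It was the only one of the 87 regions whose groups did not overlap, against 4.44% of all regions (2.49% with the chromium-restricted group higher, as here, and 1.95% with it lower). The difference was 0.08, 0.15 and 0.09 within the 3 scans, and 0.026 with only probes well above background. Region 32 differed by -0.0085 ± 0.10 (SE), with 5 probes higher and 3 lower.

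The other named type II regions were region 4 (chr15:101276906-101278470) with a difference of 0.094, region 17 with 0.12 and region 16 (chr15:101477326-101478730) with -0.13. Their unadjusted p were 0.242, 0.26 and 0.297. All 7 probes of region 16 were lower in the chromium-restricted group, as were all 6 of type II region 8. Probes of 1 region are not replicates. Region 16 measured 0.09, 0.00 and 0.39 in that group and 0.16, 0.41 and 0.32 in the control group, which overlapped. It differed by -0.25 (limma unadjusted p = 0.0454) without chromium-restricted array 3, the highest of its group there. The values of region 16 without each of the other arrays are not given here. No keratin region combined separate groups with a difference of 0.3 or more, which 0.0773% of all regions did.

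**Figure D4:**
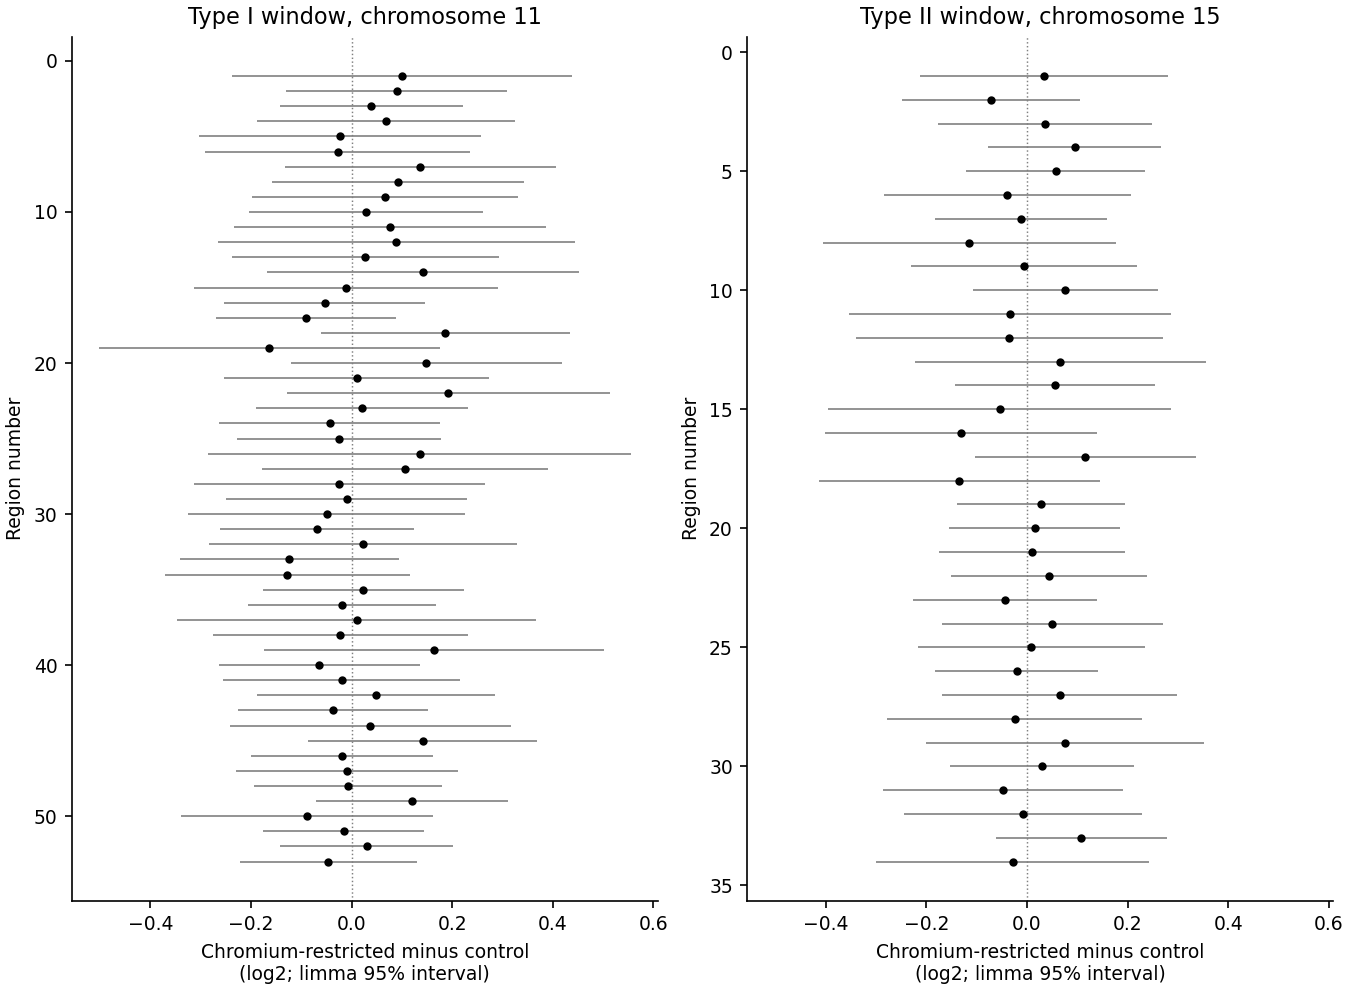
Difference in log2 ratio, chromium-restricted minus control (x axis), of the 53 type I and the 34 type II regions in order along each window (y axis, region number), with a point for the difference and a line for limma's 95% interval (n = 3 arrays a group). The points lie between -0.16 and 0.19, and every line crosses 0.

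Single probes gave the same picture. Of 663 keratin probes 0 passed limma's adjusted p of 0.05 (0% of 174278 over the array), and 8 had an unadjusted p under 0.05 (background 1.3%), 4 of them higher and 4 lower in the chromium-restricted group. Of these 8 probes, 6 had IP signal well above background on no array. The groups did not overlap at 33 of 663 probes, against 4.27% of all probes.

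The median over each window overlapped between the diet groups. The type I median was -0.045, -0.18 and -0.029 on chromium-restricted arrays 1 to 3 and -0.29, -0.090 and -0.083 on control arrays 1 to 3. The lowest of these, chromium-restricted array 2 and control array 1, were the arrays with the brightest input, with median input signals of 83.8 and 98.3 against 38.1 to 60.4 on the others. The part of input brightness in these medians was not tested. Averaged by group, the type I medians were -0.086 ± 0.085 for chromium restriction and -0.15 ± 0.12 for control (SD, n = 3 each), a difference of 0.069 that is below the spread within either group, and within the 3 scans it was 0.25, -0.094 and 0.054. The type II median was 0.081, 0.025 and 0.089 against 0.053, 0.087 and 0.095. The type II groups differed by -0.013, with means of 0.065 ± 0.035 and 0.079 ± 0.022 (SD, n = 3 each). Each scan held 1 array of each group, but the groups took different positions on the slides, position 2 for every chromium-restricted array and position 4 for every control array. Position and diet cannot be told apart.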

How the data were processed

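The deposited scanner output gives intensity values for 2 channels per spot. Per the file headers, it was made with Agilent Feature Extraction 11.0.1.1, which subtracted a local background and applied a linear dye factor per channel (5.00 to 11.6 for input, 3.79 to 5.50 for IP). The authors' deposited series values are log ratios, taken as log2, whose normalization and log base are not given in the sources used here; they served as an alternative. Control spots (5827) and flagged probes (360) were left out. The log2 ratio of IP over input processed signals was centred on each array's median, and probes at most 1000 bp apart were averaged into regions of at least 3 probes. All 21987 regions and 174278 probes were fitted with limma 3.58.1 in R 4.3.3 (lmFit, eBayes; group as the only term, or an intercept alone for levels against 0), with Benjamini-Hochberg adjustment over all of them. The scripts were tested on simulated data. The number of arrays, 3 a group, limits the precision.

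The members and gene lists were chosen with earlier results of these data known. Named regions are those at the place of Krt8 and Krt18, the 5 highest and 5 lowest in each window, the 4 with the smallest unadjusted p for diet in each window, as no region passed the adjusted threshold, and any with separate groups and a difference of 0.3 or more, of which there was none. Planned naming by gene was not possible, since the files name no genes. Alternatives were normexp (offset 50, on median spot signals in place of the planned mean signals), the authors' values, probe filters, region summary, gap of 500 bp, centring, quantile scaling, input brightness as a covariate, a replicate block and leaving out each array.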

Additional observations from a re-analysis of the deposited data

How the results depend on the processing

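No processing alternative gave a keratin region or probe past an adjusted p of 0.05 for diet in limma. With the replicate block, the counts at an unadjusted p under 0.05 were 0 regions and 10 probes. The 10 probes were 1.51% of keratin probes, against 1.32% of all probes. A block of 1 array from each group cannot move the window differences of 0.069 and -0.013. Same-numbered samples, which share a scan, correlated in their deviations at 0.145, -0.591 and 0.197, so the numbers were not taken to pair them. Unadjusted probe calls, 8 in the main analysis, were 1 with normexp (0.151% of keratin probes, against 0.253% of all probes). They were 4 with the authors' values (0.603%, against 0.767%) and 3 with only probes well above background (0.679%, against 0.734%). With the input covariate they were 23 (3.47%, against 3.904%). Regions at an unadjusted p under 0.05 were 2 with the median over probes. For this count and the region counts that follow, the share over all regions is not given here. Leaving out an array gave 0 to 2 regions and 9 to 24 probes, with 2 regions and 24 probes (3.62%, against 2.44% of all probes) without chromium-restricted array 2, and 16 probes (2.41%, against 2.38%) without control array 1. Without an array, the type I window difference ran from 4.98e-04 to 0.12 and the type II one from -0.026 to 0.0068.

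Levels moved with the processing. The median of all regions, -0.11, became 0.037 with normexp and 0.0035 with the median over probes, a shift of the median, not of every region, by over 0.1; 46.5% of all regions were then above and 37.3% below with normexp, and 37.2% and 36.3% with the median. Type I regions above the array median, 13 in the main analysis, were 24 with normexp and 21 both with the median over probes and with only probes well above background. Type I regions below it, 27 in the main analysis, were 17 with only probes well above background. That filter left 43 type I regions (48.8% above, 39.5% below) and 33 type II regions (36.4% above and below alike), against 37.0% above and 45.9% below over all regions. The type II regions below the median, 12, were 7 with normexp. The type II window difference was 0.016 with normexp.

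For type II region 32, the contrast with the rest was 0.034 with the authors' values and -0.28 with only probes well above background. Its level was 0.10 with normexp (limma adjusted p = 0.0049), 0.24 with the authors' values (limma adjusted p = 1.7e-05) and 0.018 without centring. The same level was -0.28 with only probes well above background (limma adjusted p = 1.1e-04) and -0.22 with the median over probes (limma adjusted p = 0.0088). For type II region 33 the contrast was 0.023 with normexp and 0.29 with only probes well above background. Its level was 0.19, 0.28 and 0.14 with normexp, well-above probes and the median over probes. Low levels that turned were type II region 17 (0.023 with well-above probes, 0.086 with the median), type II region 21 (0.044 with the median) and type I region 5 (0.015 with well-above probes). Diet differences that turned, none past the threshold, were type II region 17 (-0.010 with normexp, -0.028 with the authors' values, -0.033 with well-above probes), type I region 18 (-0.017, -0.061 and -0.027 with normexp, well-above probes and the median), type I region 45 (-0.024 with normexp, -0.0012 with the authors' values) and type I region 49 (-0.091 with the median). The well-above filter drops probes without IP signal by construction and also moves the array median that sets 0. The cause of the other changes was not tested.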
